A study of Mus musculus with 9 samples.

Results

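The genes described here encode 7 matrix metalloproteinases (Mmp2, Mmp3, Mmp9, Mmp10, Mmp12, Mmp13 and Mmp14) and 3 of their tissue inhibitors (Timp1, Timp2 and Timp3), 10 of the 57010 genes in the count table. They were named by symbol with earlier results of these data known, and 17 other genes of the family were listed apart. All 10 passed the filter on low counts that left 14747 genes for testing. Mmp3 passed it only through its TNFα libraries, with 58, 67 and 57 counts against at most 8 in any other library. Expression was measured by RNA sequencing in primary cultured renal cells, the mixed cells that grow out of digested kidneys of wild-type mice. The cultures were replated and then given, for 6 h, 20 ng/mL TNFα together with 1 µM ACHP (TNFα+ACHP), 20 ng/mL TNFα alone (TNFα), or PBS. Each group had 3 libraries. ACHP blocks IκB kinase, the enzyme that releases NF-κB, and the study used it to ask what NF-κB carries of the response to TNFα. No group received ACHP alone, so what the inhibitor does to these genes without TNFα was not measured. The labels do not say whether replicates came from separate animals, so the p-values measure only the spread between these libraries, which may be technical.

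Matrix metalloproteinases are zinc enzymes that cut collagens, gelatin, elastin, laminin and other proteins outside the cell. Most are secreted as inactive precursors, and TIMPs bind the active enzymes and block them. In the kidney they are known from the remodelling of basement membrane and scar tissue after injury. Several metalloproteinase promoters are textbook targets of AP-1, the Fos and Jun dimers, and the Mmp9 promoter is also known for its NF-κB sites. Transcript levels say nothing of how much of the enzyme is active.

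Mmp13, Mmp12, Mmp3 and Mmp10 lie in 1 cluster on chromosome 9, on the plus strand. Their start regions are shown here because these 4 genes and Mmp9 were the metalloproteinases that rose with TNFα. Each window, from RefSeq on GRCm38.p6, holds 250 bases before the annotated start and 50 after it, read 5′ to 3′ on the plus strand. The capitals mark the AP-1 letters (TGANTCA) and then the TATA letters (TATAAA). The windows are chr9:7272264-7272563 for Mmp13, chr9:7347124-7347423 for the downstream start of Mmp12, chr9:7445572-7445871 for Mmp3 and chr9:7502092-7502391 for Mmp10.
Mmp13: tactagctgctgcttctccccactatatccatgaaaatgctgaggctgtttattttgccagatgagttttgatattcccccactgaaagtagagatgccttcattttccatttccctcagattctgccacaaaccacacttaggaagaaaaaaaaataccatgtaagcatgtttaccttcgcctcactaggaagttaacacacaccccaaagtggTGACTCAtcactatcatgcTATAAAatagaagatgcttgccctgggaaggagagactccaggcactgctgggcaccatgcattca
Mmp12, downstream start: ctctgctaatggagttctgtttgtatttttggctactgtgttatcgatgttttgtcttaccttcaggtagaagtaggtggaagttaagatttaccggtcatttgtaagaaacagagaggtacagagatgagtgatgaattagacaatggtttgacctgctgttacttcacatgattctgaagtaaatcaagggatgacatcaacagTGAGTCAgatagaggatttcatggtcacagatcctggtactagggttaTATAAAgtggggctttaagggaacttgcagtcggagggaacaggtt
Mmp3: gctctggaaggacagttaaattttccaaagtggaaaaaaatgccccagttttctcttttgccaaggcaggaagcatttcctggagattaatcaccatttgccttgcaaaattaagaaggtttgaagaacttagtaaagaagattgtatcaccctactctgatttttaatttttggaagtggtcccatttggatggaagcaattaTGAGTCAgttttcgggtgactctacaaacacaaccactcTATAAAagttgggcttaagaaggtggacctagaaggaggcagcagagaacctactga
Mmp10: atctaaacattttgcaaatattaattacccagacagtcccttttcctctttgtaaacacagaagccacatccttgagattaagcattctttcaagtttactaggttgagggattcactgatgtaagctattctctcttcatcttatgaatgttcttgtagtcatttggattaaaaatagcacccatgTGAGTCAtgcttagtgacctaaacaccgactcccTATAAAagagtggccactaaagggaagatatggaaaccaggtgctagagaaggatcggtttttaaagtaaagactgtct

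The 4 windows printed each held 1 AP-1 match and 1 TATA match. Mmp12 has 2 annotated starts, and the window printed is the one that holds these matches. The count over the 4 windows depends on that choice and is no test against the shares given below. The AP-1 letters began at position -35 in Mmp13, -44 in Mmp12, -46 in Mmp3 and -63 in Mmp10, counted from the annotated start site with no position 0. The TATA letters began at -16 in Mmp13, 5 in Mmp12, -7 in Mmp3 and -29 in Mmp10. Both distances rest on the annotated starts, which may not be the starts used in these cells. On either strand, 7.81% of the 32851 RefSeq promoter windows of mouse genes held TGANTCA and 13.6% held TATAAA. The upstream start of Mmp12, chr9:7344147-7344446, held neither, and the windows of Mmp14, Timp1, Timp2 and Timp3 held neither. The letters GGGNNNNNCC of an NF-κB (kB) site, which were in 50.8% of all windows, were absent from the 4 windows printed above. They were present at the upstream start of Mmp12, 1 time each in Mmp14 and Timp2, 3 times in Timp3 and 4 times in Timp1, where 3 of the matches overlap. The letters AGGAAG of a PEA3 (Ets family) site, in 35.4% of all windows, were found 2 times in Mmp13, 1 time each in Mmp3, Mmp14, Timp3 and the upstream start of Mmp12, 3 times in Timp1, and not in Mmp10, Timp2 or the downstream start of Mmp12. These windows were matched for 8 of the 10 genes, without Mmp2 and Mmp9. A match is a run of letters and not a known binding site, and no match in a window of 300 bases says nothing about sites elsewhere.

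**Figure D1:**
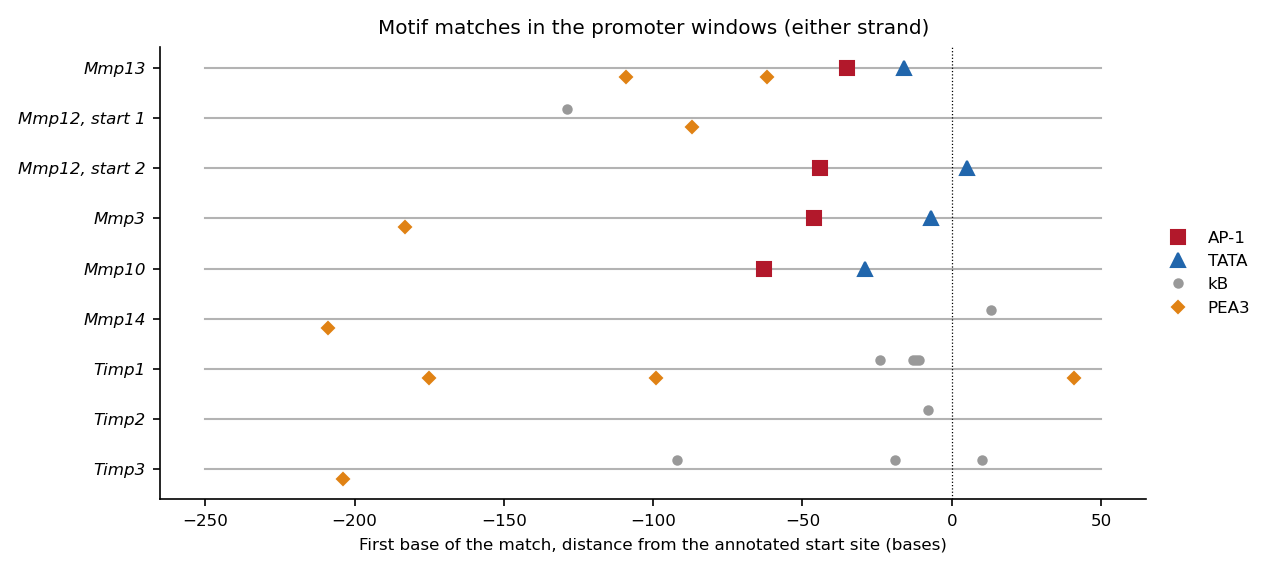
Positions of AP-1, TATA, kB and PEA3 letter matches in the RefSeq start windows of 8 genes, as the distance of the first base of each match from the annotated start in bases. AP-1 and TATA matches are in the windows of Mmp13, the downstream start of Mmp12, Mmp3 and Mmp10, with AP-1 between -63 and -35, and in no other window shown.

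Each library held 14194295 to 20892176 counts, and the edgeR common dispersion corresponds to a coefficient of variation of 4.01% between replicates. Levels are given as CPM, counts scaled to a common library size with TMM factors. Epithelial markers, 10 genes such as the kidney cadherin Cdh16 and the keratin Krt8, summed to 6000–6370 CPM with TNFα+ACHP, 5670–5710 with TNFα and 5850–5950 with PBS. Of 9 proximal tubule markers 4 passed the filter, Slc22a6 was at 0 in every library, and the injury marker Havcr1 made up most of their sum. Macrophage markers (15 genes) summed to 25.9–28.7 CPM with TNFα+ACHP, 47.5–50.3 with TNFα and 44.5–48.1 with PBS. Fibroblast markers (10 genes) summed to 630–695 CPM with TNFα+ACHP, 731–755 with TNFα and 815–929 with PBS. Most of these sums was Acta2, with means of 468, 526 and 603 CPM in the same order of groups. Markers of neutrophils, a known source of Mmp9, summed to at most 0.576 CPM in any library, with Elane, Camp and Retnlg at 0 throughout. Transcripts of neurons were also present, unevenly: 12 neuron markers summed to 4.78, 3.91 and 3.63 CPM with TNFα+ACHP, 27.5, 48.3 and 40.0 with TNFα, and 4.09, 75.7 and 57.2 with PBS. Neural transcripts were thus high in all TNFα libraries and PBS replicates 2 and 3, and low in all TNFα+ACHP libraries and PBS replicate 1. Fits with 3 terms for them were run: a 2-level term and a log2 covariate from the summed levels of all 15 neuron markers, and a 2-level term from these 12. The first of these puts TNFα replicate 1 among the low libraries. In bulk RNA, fewer cells of a type and less RNA per cell cannot be told apart.

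With TNFα, 6 of the 10 genes were higher than with PBS and 1 was lower. Of all genes tested 3.31% were higher and 2.91% lower, or 6.22% in either direction (edgeR quasi-likelihood test, Benjamini-Hochberg adjusted p under 0.05). The 6 were 5 of the 7 metalloproteinases, namely Mmp3, Mmp9, Mmp10, Mmp12 and Mmp13, and the inhibitor Timp1. Timp3 was the 1 that fell. The 10 genes were chosen with earlier results of these data known, and Mmp3 passed the filter only through the TNFα libraries. The counts here are therefore no test of the family against all genes. Of 8 other genes of the family that were tested, 0 were called for TNFα over PBS. When ACHP was added to TNFα, the same 5 metalloproteinases were lower than with TNFα alone and 0 of the 10 genes were higher, against 4.46% lower and 2.71% higher of all genes (7.17% in either direction). DESeq2 also called 0 higher, and 1, Timp3, had an unadjusted edgeR p under 0.05. The 3 inhibitors missed the adjusted threshold in this test by edgeR and by DESeq2, though all 3 had an unadjusted edgeR p under 0.05. Against PBS, TNFα+ACHP cells had 2 genes higher (Mmp9 and Timp1) and 4 lower (Mmp2, Mmp12, Mmp13 and Timp3), against 2.18% and 3.87% of all genes (6.04% in either direction). Median log2 fold changes over the 10 genes were 0.71 for TNFα over PBS, -0.47 for TNFα+ACHP over TNFα and -0.13 for TNFα+ACHP over PBS, where the median of all genes was 0.00 each time. The 3 comparisons share libraries pairwise and are not independent of each other.

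The 5 induced metalloproteinases ended at different places. Mmp9 stayed above PBS, Mmp10 and Mmp3 had no call against PBS, and Mmp12 and Mmp13 were below PBS. The share of the rise over PBS that was left with ACHP was 37.5% for Mmp9 (35.6% to 39.3% when leaving out any 1 library) and 33.0% for Mmp10 (27.1% to 42.4%). It was -2.93% for Mmp3 (-5.94% to 0.469%), -30.4% for Mmp13 (-42.4% to -21.5%) and -40.3% for Mmp12 (-46.8% to -32.6%), a negative share being a level under that of PBS. These shares are descriptions on the CPM scale, and differences between the genes in them were not tested.

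**Figure D2:**
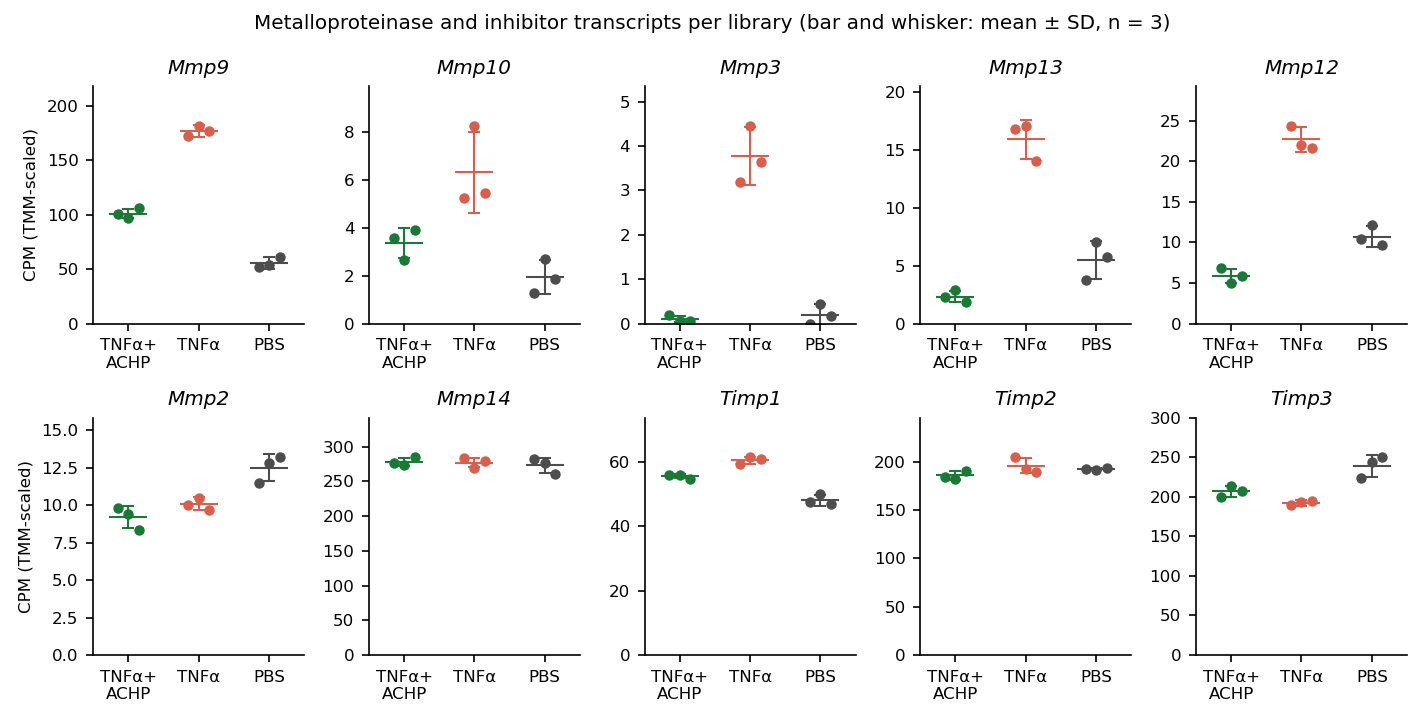
CPM (counts scaled by TMM to a common library size) of each gene in each of the 9 libraries, with mean and SD of 3 libraries per group, on axes that start at 0. Mmp9, Mmp10, Mmp3, Mmp13 and Mmp12 are highest in the 3 TNFα libraries, and with TNFα+ACHP the means of Mmp13 (2.33 CPM) and Mmp12 (5.87 CPM) lie under their PBS means.

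Mmp9 encodes gelatinase B, which cuts denatured collagen and the collagen IV of basement membranes (ENSMUSG00000017737, chr2:164782700-164797770, plus strand, on GRCm39 as all gene intervals here). Its level was 101, 96.9 and 106 CPM in the TNFα+ACHP libraries, 172, 182 and 177 CPM in the TNFα libraries, and 51.9, 53.6 and 61.6 CPM in the PBS libraries. The 3 groups did not overlap, and TNFα+ACHP stood between the other two. TNFα gave 3.17-fold the PBS level (log2 fold change 1.66, SE 0.05, edgeR adjusted p = 6.5e-14). With TNFα+ACHP, Mmp9 was lower than with TNFα alone by a log2 fold change of -0.81 (SE 0.05, edgeR adjusted p = 2.0e-09), or 1.75-fold. It was still 1.81-fold higher than with PBS (log2 fold change 0.85, SE 0.06, edgeR adjusted p = 2.2e-08). All 3 calls held in each of the 20 alternative fits, among them leaving out each library. Between the libraries low in neural transcripts, the TNFα+ACHP libraries and PBS replicate 1, the log2 fold change was 0.96. Between those high in them, TNFα and PBS replicates 2 and 3, it was 1.62.

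Mmp10 encodes stromelysin 2, which cuts proteoglycans, laminin and fibronectin and activates other metalloproteinase precursors (ENSMUSG00000047562, chr9:7502353-7510241, plus strand). It is scarce in these cultures, with 58, 56 and 61 counts in the TNFα+ACHP libraries, 95, 124 and 85 in the TNFα libraries and 18, 48 and 34 in the PBS libraries. In CPM these were 3.56, 2.67 and 3.89 with TNFα+ACHP, 5.22, 8.26 and 5.44 with TNFα, and 1.27, 2.68 and 1.84 with PBS. The TNFα libraries stood above the others, while TNFα+ACHP replicate 2 lay within the PBS range. The log2 fold change was 1.67 for TNFα over PBS (SE 0.24, edgeR adjusted p = 0.00017) and -0.91 for TNFα+ACHP over TNFα (SE 0.22, edgeR adjusted p = 0.016). With PBS replicate 1 as the only PBS library, TNFα over PBS came to 2.30 (edgeR adjusted p = 0.00011). The call for TNFα+ACHP over TNFα was lost without TNFα replicate 2 (-0.67, edgeR adjusted p = 0.15) and without TNFα+ACHP replicate 2 (-0.75, edgeR adjusted p = 0.094). It was also lost with each of the 3 terms for neural transcripts (-0.56 to -0.09). Against PBS the log2 fold change was 0.76 with a 95% interval of 0.22 to 1.31 (edgeR adjusted p = 0.094), and it passed without PBS replicate 2 (1.07, edgeR adjusted p = 0.044), without a filter on low counts (0.76, edgeR adjusted p = 0.015) and with 2 of the 3 neural terms (1.15 and 1.51).

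Mmp3 encodes stromelysin 1, the nearest relative of Mmp10 in this set, with a like range of substrates (ENSMUSG00000043613, chr9:7445822-7455975, plus strand). Its counts were 3, 1 and 1 in the TNFα+ACHP libraries, 58, 67 and 57 in the TNFα libraries, and 0, 8 and 3 in the PBS libraries. Only the TNFα libraries held more than 8 counts, and both other groups were near 0. The gene was thus tested only because of the group where it was high. Summed over libraries and scaled to library size, TNFα had 17.1-fold the PBS count, with a 95% counting interval of 9.36 to 34.9 from 182 and 11 counts. TNFα+ACHP had 0.0253 of the TNFα count (0.00813 to 0.0602, from 5 and 182 counts), or 39.5-fold less. The fitted log2 fold changes were 4.08 for TNFα over PBS (SE 0.47, edgeR adjusted p = 1.0e-05) and -5.20 for TNFα+ACHP over TNFα (SE 0.54, edgeR adjusted p = 2.5e-06). Without PBS replicate 2, which held 8 of the 11 PBS counts, the log2 fold change for TNFα over PBS was 5.25 (edgeR adjusted p = 8.0e-06), with a range of 3.60 to 5.25 when leaving out each library, and it was 4.77 with the log2 neuron level as a covariate. Without TNFα+ACHP replicate 1, which held 3 of the 5 counts of its group, the value for TNFα+ACHP over TNFα was -5.92 (edgeR adjusted p = 1.5e-05), with a range of -5.92 to -4.83 when leaving out each library. The ratio of counts for TNFα+ACHP over PBS was 0.434 (0.118 to 1.36), and the log2 fold change of -1.13 did not pass (95% interval -2.96 to 0.71, edgeR adjusted p = 0.53). At this depth a level somewhat above or well below PBS is not distinguishable. The fall with ACHP lost its call with 2 of the 3 neural terms, where it was -3.31 (edgeR adjusted p = 0.09) and 0.19 (edgeR adjusted p = 0.91). The second of these fits rests on PBS replicate 1, the 1 library that differs in the term from its group, where Mmp3 had 0 counts.

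Mmp13 encodes the main interstitial collagenase of rodents, which cuts fibrillar collagen (ENSMUSG00000050578, chr9:7272514-7283331, plus strand). It was at 2.27, 2.86 and 1.85 CPM with TNFα+ACHP, 16.8, 17.1 and 14 CPM with TNFα, and 3.74, 7.02 and 5.74 CPM with PBS. No groups overlapped, and every TNFα+ACHP library was below every PBS library. In counts these were 37, 60 and 29 with TNFα+ACHP, 306, 256 and 218 with TNFα, and 53, 126 and 106 with PBS. Mmp13 rose 2.85-fold with TNFα (log2 fold change 1.51, SE 0.16, edgeR adjusted p = 2.9e-06). With TNFα+ACHP it was 6.72-fold lower than with TNFα (log2 fold change -2.75, SE 0.18, edgeR adjusted p = 3.7e-09) and 2.36-fold lower than with PBS (log2 fold change -1.24, SE 0.21, edgeR adjusted p = 0.0011). PBS replicate 1, the library of that group low in neural transcripts, also had the lowest Mmp13. Against it alone the log2 fold change was -0.66 (edgeR adjusted p = 0.28), with the log2 neuron level as a covariate -0.76 (edgeR adjusted p = 0.18), and with the term from the 12 neuron markers -0.66 (edgeR adjusted p = 0.35). The rise with TNFα and the fall against TNFα kept their calls in all 20 alternatives. The size of the fall was less with 2 of the 3 neural terms, at -2.34 with the covariate (edgeR adjusted p = 4.1e-07) and -1.98 with the term from the 12 neuron markers (edgeR adjusted p = 0.0013).

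Mmp12 encodes macrophage elastase, which cuts elastin and is best known from macrophages (ENSMUSG00000049723, chr9:7344381-7369499, plus strand). It was at 6.80, 5.01 and 5.80 CPM with TNFα+ACHP, 24.4, 22.0 and 21.6 CPM with TNFα, and 10.4, 12.1 and 9.63 CPM with PBS. The 3 groups were apart, with TNFα+ACHP lowest in every library. Mmp12 rose 2.12-fold with TNFα (log2 fold change 1.09, SE 0.10, edgeR adjusted p = 8.1e-07). With TNFα+ACHP it was 3.90-fold lower than with TNFα (log2 fold change -1.96, SE 0.11, edgeR adjusted p = 4.5e-10). Against PBS it was 1.84-fold lower (log2 fold change -0.88, SE 0.12, edgeR adjusted p = 0.00022). These 3 calls held in all 20 alternatives, and against PBS replicate 1 alone the log2 fold change was -0.83 (edgeR adjusted p = 0.0064). Of its exon bases 2.2% are shared with Mmp1b on the opposite strand, which had 0 counts in every library.

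Macrophage markers were also lower with TNFα+ACHP. Of 15 markers 12 were tested, of which 8 were lower with TNFα+ACHP than with TNFα and 7 lower than with PBS. For TNFα over PBS 0 of the 12 were called by edgeR or DESeq2, and 3 higher and 1 lower had an unadjusted edgeR p under 0.05. Lysozyme (Lyz2) was at 1.11 ± 0.486 CPM with TNFα+ACHP, 8.82 ± 1.19 with TNFα and 6.59 ± 0.517 with PBS (SD, n = 3 each). Among the complement C1q genes, C1qa was at 0.11 CPM with TNFα+ACHP, 1.37 with TNFα and 1.81 with PBS. Other markers of the list were not lower in this way. Cd14 was at 9.41 CPM with TNFα+ACHP, 9.69 with TNFα and 7.76 with PBS. Cd68 was at 4.37, 4.9 and 4.98 CPM in the same order, and edgeR called neither gene in any comparison. Medians of the 12 log2 fold changes were 0.09 for TNFα over PBS, -2.44 for TNFα+ACHP over TNFα and -1.87 for TNFα+ACHP over PBS. No macrophage marker of the list was at 0 in every library. The part that macrophage RNA has in the lower Mmp12 and Mmp13 with TNFα+ACHP was not tested. For all 5 induced metalloproteinases, neural transcripts and treatment cannot be told apart in TNFα+ACHP over TNFα, since every TNFα library was high in them and every TNFα+ACHP library low. TNFα over PBS can be read within the libraries high in them, though these were not matched. The 12 neuron markers summed to 27.5, 48.3 and 40.0 CPM with TNFα, against 75.7 and 57.2 in PBS replicates 2 and 3. There, without PBS replicate 1, the log2 fold changes were 3.60 for Mmp3, 1.62 for Mmp9, 1.47 for Mmp10, 1.06 for Mmp12 and 1.32 for Mmp13, all 5 called.

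**Figure D3:**
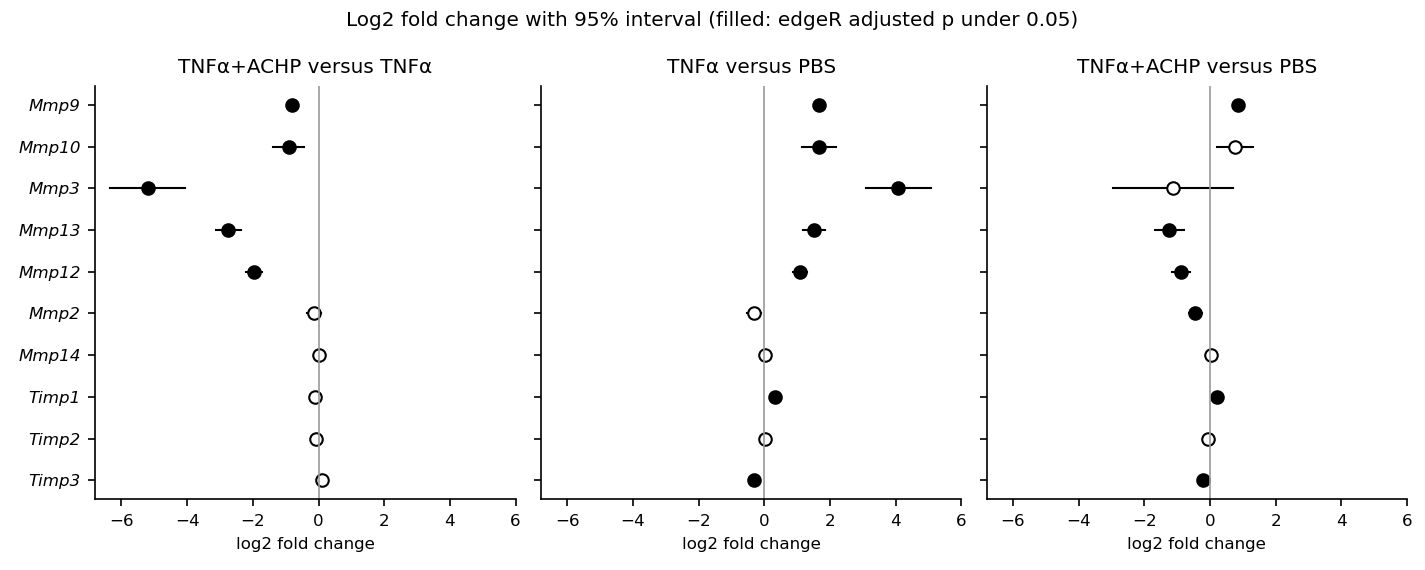
Log2 fold changes with 95% intervals of the 10 genes for TNFα+ACHP over TNFα, TNFα over PBS, and TNFα+ACHP over PBS, filled where the edgeR adjusted p was under 0.05. The 5 induced metalloproteinases lie left of 0 in the left panel (-5.20 to -0.81) and spread to both sides of 0 in the right panel, from -1.24 for Mmp13 to 0.85 for Mmp9.

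The other 2 metalloproteinases were not called higher with TNFα. Mmp2 encodes gelatinase A, typically made by stromal cells (ENSMUSG00000031740, chr8:93553919-93580048, plus strand). It was at 9.81, 9.40 and 8.35 CPM with TNFα+ACHP, 10.0, 10.5 and 9.67 with TNFα, and 11.5, 12.8 and 13.2 with PBS. The PBS libraries were the highest, and the other groups overlapped. TNFα+ACHP was lower than PBS by a log2 fold change of -0.45 (SE 0.10, edgeR adjusted p = 0.0081), a call lost without TNFα+ACHP replicate 3 (-0.39, edgeR adjusted p = 0.054), against PBS replicate 1 alone (-0.32, edgeR adjusted p = 0.37) and with each neural term. TNFα over PBS was -0.31 (edgeR adjusted p = 0.063), or -0.37 without PBS replicate 1 (edgeR adjusted p = 0.042), and TNFα+ACHP over TNFα was -0.13 (95% interval -0.34 to 0.08, edgeR adjusted p = 0.51). Of 9 fibroblast markers tested, 3 were lower for TNFα over PBS and 6 for TNFα+ACHP over PBS. For TNFα+ACHP over TNFα, where Mmp2 had no call, 4 were lower. In each comparison 0 were called higher, though Dcn (1.09) and Pdgfra (0.24) went up for TNFα over PBS without a call. The part of fibroblast RNA in the Mmp2 difference was not tested. Of the exon bases of Mmp2 25.5% are shared with the predicted gene Gm45472 on the opposite strand, and the counts do not separate strands.

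Mmp14 encodes a membrane-type metalloproteinase that cuts collagen at the cell surface and, with TIMP2, activates the Mmp2 precursor (ENSMUSG00000000957, chr14:54669069-54682821, plus strand). It had the highest CPM of these metalloproteinases in every group, and its level hardly varied. It was at 276, 273 and 285 CPM with TNFα+ACHP, 283, 269 and 279 with TNFα, and 282, 277 and 261 with PBS. The groups overlapped, and the 95% intervals of its log2 fold changes allow no more than 0.10 in either direction for any comparison (edgeR adjusted p = 0.79 to 0.95).

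Among the inhibitors, Timp1, the soluble TIMP known as inducible in injury and inflammation, rose with TNFα (ENSMUSG00000001131, chrX:20736405-20740974, plus strand, inside the span of Syn1 with no shared exon bases). It was at 56.0, 55.8 and 54.8 CPM with TNFα+ACHP, 59.3, 61.5 and 60.8 with TNFα, and 47.4, 50.0 and 46.9 with PBS. TNFα+ACHP lay between the other groups without overlap. The log2 fold change was 0.33 for TNFα over PBS (SE 0.05, edgeR adjusted p = 0.00017), which is 1.26-fold. Over PBS, TNFα+ACHP gave 0.21 (SE 0.05, edgeR adjusted p = 0.012), a call lost against PBS replicate 1 alone (0.23, edgeR adjusted p = 0.14) and with each neural term (0.23 to 0.24). With TNFα+ACHP over TNFα it was -0.12 (95% interval -0.22 to -0.03), which did not pass after adjustment (edgeR adjusted p = 0.12). On the CPM scale 59.4% of the rise was left with ACHP (56.6% to 62.4% when leaving out 1 library).

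Timp3, the TIMP that binds to the matrix and also blocks ADAM17, the enzyme that releases TNFα from cells, went the other way (ENSMUSG00000020044, chr10:86136236-86185370, plus strand). It was at 200, 214 and 207 CPM with TNFα+ACHP, 189, 193 and 195 with TNFα, and 224, 244 and 250 with PBS. TNFα libraries were lowest and PBS libraries highest, without overlap. Timp3 was lower than with PBS in TNFα cells (log2 fold change -0.32, SE 0.04, edgeR adjusted p = 5.9e-05) and in TNFα+ACHP cells (-0.21, SE 0.04, edgeR adjusted p = 0.0037). The second call was lost against PBS replicate 1 alone (-0.11, edgeR adjusted p = 0.36) and with each neural term (-0.15 to -0.11). TNFα+ACHP over TNFα was 0.11 (95% interval 0.02 to 0.20, edgeR adjusted p = 0.15), and passed with the 2-level term from all 15 neuron markers (0.17). The gene lies within Syn3 and shares 21.3% of its exon bases with Syn3 on the opposite strand.

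Timp2, the inhibitor that takes part in Mmp2 activation, did not pass in any comparison (ENSMUSG00000017466, chr11:118191887-118246566, minus strand). It was at 184, 182 and 191 CPM with TNFα+ACHP, 205, 193 and 190 with TNFα, and 193, 192 and 194 with PBS. TNFα overlapped both other groups, while the TNFα+ACHP libraries lay just under the PBS libraries. Its 95% intervals were -0.05 to 0.10 for TNFα over PBS, -0.16 to 0.00 for TNFα+ACHP over TNFα and -0.13 to 0.02 for TNFα+ACHP over PBS (edgeR adjusted p = 0.24 to 0.79). Of its exon bases 7.8% are shared with Cep295nl on the same strand.

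Levels of different genes were set side by side per kilobase of exon. The length used is that of all annotated exons of a gene merged, which can exceed that of its transcripts. It was 7237 bases for Mmp12, against 1801 for Mmp3 and 1722 for Mmp10. The order of genes thus depends on the annotation, and genes with shared exon bases may miss reads. On this scale Timp1 led in every group, at 62.5 CPM per kb with TNFα+ACHP, 68.2 with TNFα and 54.2 with PBS. With TNFα the order after it was Mmp9 (50.0 CPM per kb), Mmp14 (46.4), Timp2 (46.3), Timp3 (23.6), Mmp13 (5.96), Mmp10 (3.66), Mmp12 (3.14), Mmp2 (2.99) and Mmp3 (2.09). Mmp14 and Timp2 did not differ beyond their spread, nor did Mmp10, Mmp12 and Mmp2 in neighbouring pairs. With TNFα+ACHP it was Mmp14 (46.7), Timp2 (43.8), Mmp9 (28.6), Timp3 (25.4), Mmp2 (2.72), Mmp10 (1.96), Mmp13 (0.87), Mmp12 (0.811) and Mmp3 (0.0547), with only Mmp13 and Mmp12 overlapping. With PBS, Mmp14 (45.9) and Timp2 (45.5) overlapped, and Timp3 (29.4), Mmp9 (15.7) and Mmp2 (3.71) followed. Mmp13 (2.06), Mmp12 (1.48) and Mmp10 (1.12) overlapped as neighbours, and Mmp3 (0.113) was last.

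Summed over the 7 metalloproteinases, levels were 81.7, 79.4 and 84.0 CPM per kb with TNFα+ACHP, 113, 116 and 113 with TNFα, and 69.0, 71.4 and 69.8 with PBS. The 3 inhibitors summed to 131, 132 and 132 CPM per kb with TNFα+ACHP, 138, 139 and 137 with TNFα, and 126, 132 and 129 with PBS. The ratio of the sums, metalloproteinase to inhibitor, was 0.62 ± 0.0172 with TNFα+ACHP, 0.828 ± 0.0109 with TNFα and 0.543 ± 0.00307 with PBS (SD, n = 3 each), with no overlap between groups. Mmp9 made up 34.5–35.6% of the metalloproteinase sum with TNFα+ACHP, 42.8–44.3% with TNFα and 21.2–24.9% with PBS. Mmp14, at a nearly constant level of its own, made up 56.7–57.8% with TNFα+ACHP, 38.8–41.8% with TNFα and 62.8–68.6% with PBS. Timp1 was 46.6–48.1% of the inhibitor sum with TNFα+ACHP, 48.3–50.0% with TNFα and 40.9–42.8% with PBS. These sums are descriptions of RNA, carry no test, and are dominated by Mmp9, Mmp14 and the inhibitors. The sums and their ratio also depend on the annotated exon lengths.

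**Figure D4:**
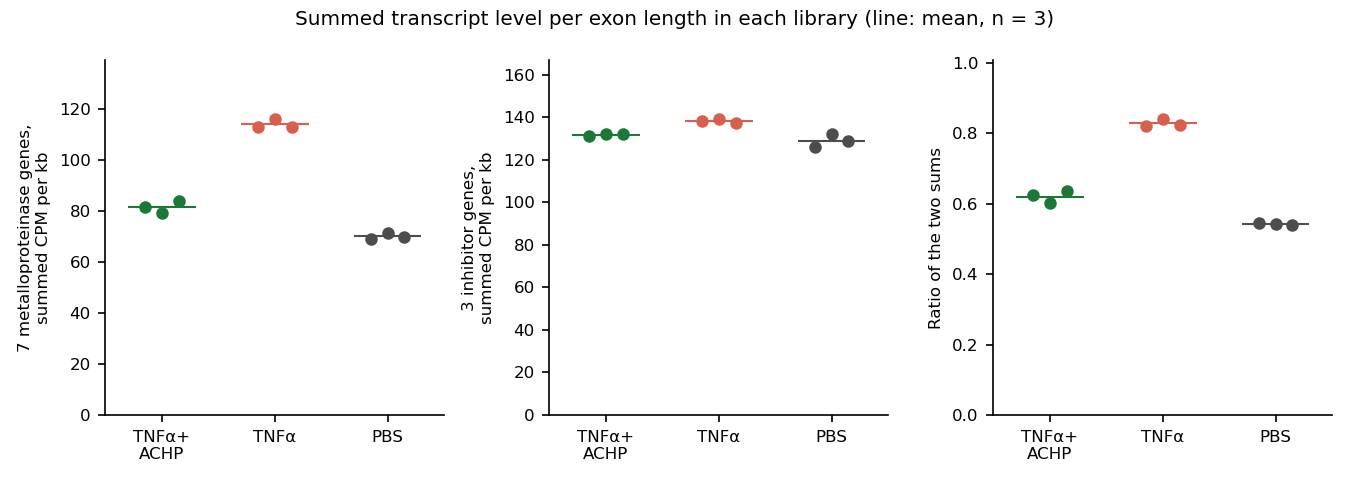
Summed CPM per kb of exon for the 7 metalloproteinase genes (left) and the 3 inhibitor genes (middle), and the ratio of both sums (right), per library, with the mean of 3 libraries as a line and axes from 0. The ratio lies at 0.601–0.635 with TNFα+ACHP, 0.82–0.84 with TNFα and 0.54–0.546 with PBS.

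On chromosome 9 the cluster of metalloproteinase genes holds 10 genes over 427.1 kb, in the order Mmp13, Mmp12, Mmp1b, Mmp3, Mmp1a, Mmp10, Mmp8, Mmp27, Mmp20 and Mmp7. The 4 induced genes lie within 237.7 kb, with Mmp1b and Mmp1a, relatives of the human interstitial collagenase gene, between them. Both of those had 0 counts in every library. Mmp8, neutrophil collagenase, had 1–3 counts per library and Mmp27 had 1–8. Mmp7, matrilysin, had 8–11 counts with TNFα+ACHP, 6–20 with TNFα and 3–8 with PBS, too few to be tested. Mmp20, enamelysin, was tested and did not pass (log2 fold change 0.71, edgeR adjusted p = 0.33 for TNFα over PBS, from 46 counts in the TNFα group and 29 in the PBS group).

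**Figure D5:**
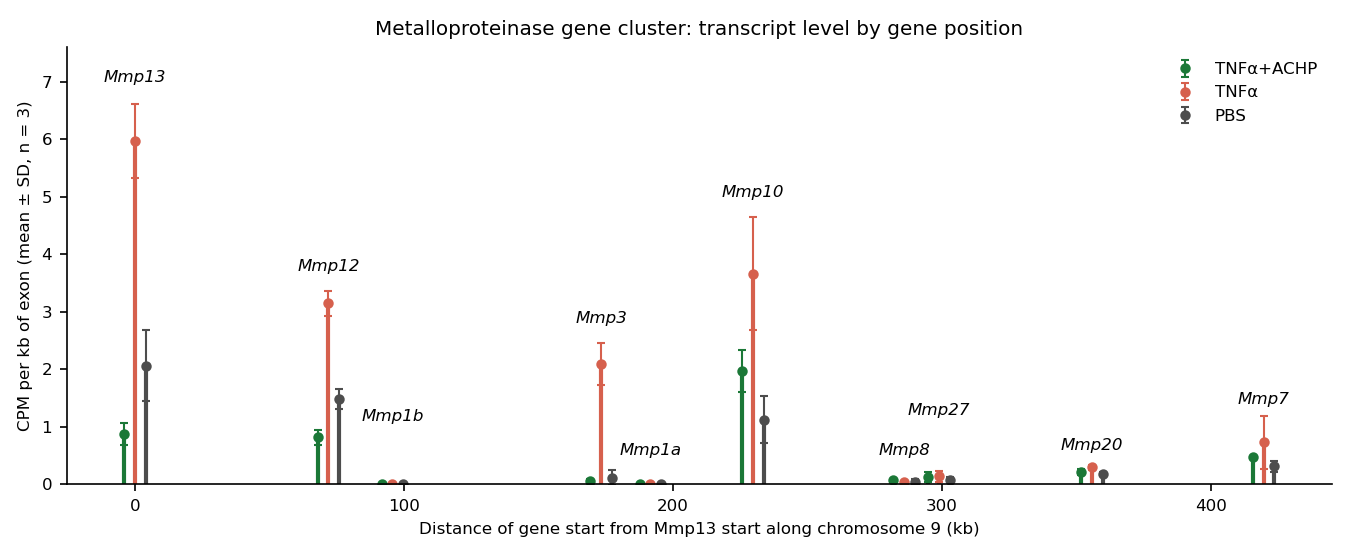
Level of each gene of the chromosome 9 metalloproteinase cluster (CPM per kb of exon, mean and SD of 3 libraries per group) by the distance of its start from that of Mmp13 in kb. TNFα gives the highest level for Mmp13, Mmp12, Mmp3 and Mmp10, while Mmp1b and Mmp1a between them are at 0 and the 4 genes to their right stay under 1 CPM per kb on average.

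Of 17 other metalloproteinase and inhibitor genes 8 were tested. For TNFα+ACHP over TNFα 1, the membrane-type Mmp15, was higher (28.3 ± 1.25 CPM with TNFα+ACHP, 23.0 ± 0.778 with TNFα, SD, n = 3 each, log2 fold change 0.30, edgeR adjusted p = 0.018). DESeq2 called 0 of the 8 in this comparison, and Mmp15 missed its threshold (DESeq2 adjusted p = 0.057). For TNFα over PBS 0 of the 8 were called by edgeR or DESeq2 and 0 had an unadjusted edgeR p under 0.05, and for TNFα+ACHP over PBS the counts were 0 by both tools and 1. Their median log2 fold changes were -0.11 for TNFα over PBS, -0.25 for TNFα+ACHP over TNFα and -0.12 for TNFα+ACHP over PBS. Among the related ADAM and ADAMTS proteases, 14 of 18 were tested, with 2 higher (1 by DESeq2) and 3 lower for TNFα over PBS, 2 higher and 3 lower for TNFα+ACHP over TNFα, and 0 higher (1 by DESeq2, 1 at an unadjusted edgeR p under 0.05) and 2 lower for TNFα+ACHP over PBS. Adamts7, which cuts the cartilage protein COMP, was at 11.9 ± 0.688 CPM with TNFα+ACHP, 17.0 ± 0.252 with TNFα and 11.5 ± 0.293 with PBS (SD, n = 3 each). It rose with TNFα (log2 fold change 0.57, edgeR adjusted p = 0.00017) and was lower with TNFα+ACHP than with TNFα (-0.51, edgeR adjusted p = 0.0004). Adam8, a sheddase of leukocytes and epithelium, was at 16.2 ± 0.582 CPM with TNFα+ACHP, 25.4 ± 1.05 with TNFα and 20.6 ± 1.85 with PBS, and was below PBS with TNFα+ACHP (-0.34, edgeR adjusted p = 0.011), as Mmp12 and Mmp13 were. The aggrecan-cutting Adamts4 was lower with TNFα+ACHP than with TNFα (-0.65, edgeR adjusted p = 0.0078), and Adamts5 was lower with TNFα than with PBS (-0.17, edgeR adjusted p = 0.0044).

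Of 16 activators, other inhibitors and binding partners 14 were tested, and the plasmin precursor Plg was at 0 in every library. For TNFα over PBS 6 were higher and 2 lower, for TNFα+ACHP over TNFα 0 were higher (0 by DESeq2, 2 at an unadjusted edgeR p under 0.05) and 4 lower, and for TNFα+ACHP over PBS 4 were higher and 3 lower. Cd44, the hyaluronan receptor that can hold MMP9 at the cell surface, was at 1190 ± 5.3 CPM with TNFα+ACHP, 1480 ± 22.6 with TNFα and 1060 ± 7.45 with PBS (SD, n = 3 each). Its log2 fold change was 0.48 for TNFα over PBS (edgeR adjusted p = 8.0e-10) and -0.32 for TNFα+ACHP over TNFα (edgeR adjusted p = 4.3e-07). Plat, tissue plasminogen activator, was higher than with PBS both in TNFα+ACHP cells (0.33, edgeR adjusted p = 0.00061) and in TNFα cells (0.38, edgeR adjusted p = 0.00011). Lrp1, the endocytic receptor that clears MMP9 and TIMP complexes, was lower than with PBS in both (-0.55, edgeR adjusted p = 0.00015, with TNFα+ACHP and -0.34, edgeR adjusted p = 0.0064, with TNFα). Of 17 matrix substrates all were tested, with 0 higher (0 by DESeq2, 2 at an unadjusted edgeR p under 0.05) and 4 lower for TNFα over PBS, 3 higher and 3 lower for TNFα+ACHP over TNFα, and 2 higher and 6 lower for TNFα+ACHP over PBS. The fibrillar collagen Col1a1 was at 111 ± 1.8 CPM with TNFα+ACHP, 113 ± 4.51 with TNFα and 148 ± 8.3 with PBS (SD, n = 3 each), and it fell with TNFα (log2 fold change -0.39, edgeR adjusted p = 9.6e-06). Fibroblast markers, of which Col1a1 is 1, summed lower in the same groups, though Acta2 made up most of the sum. Their part in the collagen difference was not tested. Fibronectin (Fn1) was higher with TNFα+ACHP than with TNFα (0.19, edgeR adjusted p = 0.0085).

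All 19 genes for factors known at metalloproteinase promoters were tested. For TNFα over PBS 6 were higher and 1 lower, for TNFα+ACHP over TNFα 2 were higher (1 by DESeq2) and 4 lower, and for TNFα+ACHP over PBS 4 were higher (2 by DESeq2) and 0 lower (0 by DESeq2 and 0 at an unadjusted edgeR p under 0.05). The NF-κB subunit gene Relb was at 21.1 ± 0.824 CPM with TNFα+ACHP, 27.8 ± 1.59 with TNFα and 18.5 ± 1.42 with PBS (SD, n = 3 each). It rose with TNFα (log2 fold change 0.59, edgeR adjusted p = 3.2e-05) and was lower with TNFα+ACHP than with TNFα (-0.40, edgeR adjusted p = 0.0016). Nfkb2 was higher than with PBS in TNFα+ACHP cells (0.22, edgeR adjusted p = 0.0047) and in TNFα cells (0.40, edgeR adjusted p = 7.3e-06). It too was lower with TNFα+ACHP than with TNFα (-0.18, edgeR adjusted p = 0.015). Among the AP-1 genes, Fosb (0.57, edgeR adjusted p = 0.026) and Jund (0.35, edgeR adjusted p = 5.7e-05) were higher with TNFα+ACHP than with TNFα. The call for Fosb was lost with DESeq2 (adjusted p = 0.094), and that for Jund was not (DESeq2 adjusted p = 1.7e-06). The other AP-1 genes of the list were not called in this comparison (edgeR adjusted p = 0.061 to 0.96). Jund had been lower with TNFα than with PBS (-0.20, edgeR adjusted p = 0.015). These are levels of the factors' own RNA, and their binding was not measured.

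Profiles over the 9 libraries were set against those of 10172 genes with a mean of at least 5 CPM, by Pearson's r of log2(CPM + 0.5). The libraries share the treatments, so r describes a likeness and carries no test. Nearest to Mmp9 were Arhgef40 (r = 0.981), Col5a3 (0.980) and Pkp1 (0.979). For Mmp12 they were Lgals3bp (0.988), Samd9l (0.987) and Ccn4 (0.985), and for Mmp13 Nedd9 (0.988), Ehf (0.980) and Angpt4 (0.977). Lgals3bp, like Mmp12, was lowest with TNFα+ACHP, at 33.6 CPM, against 53.8 CPM with TNFα and 40.7 CPM with PBS. Timp1 was nearest to Micall2 (0.978), Slc9a2 (0.974) and Slc12a2 (0.966), a Na-K-Cl cotransporter. Timp3 was nearest to Gsr (0.986), which encodes glutathione reductase, Btc (0.967) and Sept4 (0.966). Mmp2 was nearest to Kif26b (0.973), Map4k3 (0.957) and Mfap3l (0.952).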

How the data were processed

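Total RNA of primary cultured renal cells was sequenced in 9 libraries, 3 per group. The authors deposited raw counts per gene. Per the file headers, featureCounts 2.0.1 made them with its defaults and an Ensembl 109 annotation (GRCm39). The submitters' processing notes name STAR, featureCounts, DESeq2 and mm10. Gene intervals come from the count table and are given on GRCm39. The RefSeq promoter windows are on GRCm38.p6, and no position was carried between builds. With these defaults the counts ignore strand and leave out reads that overlap several genes or align to several places, so a gene with shared exon bases may miss reads.

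Symbols were found for 52029 identifiers with 99.6% of all counts. Groups and replicate numbers came from the sample titles. With edgeR 4.0.16 in R 4.3.3, low genes were removed by filterByExpr and libraries were scaled by TMM (0.993 to 1.01). The quasi-likelihood fit had 1 mean for each of the 3 groups and used all 9 libraries and 14747 genes. Genes with a p under 0.05 after Benjamini-Hochberg adjustment across the 14747 were called. Standard errors were derived from the F statistic. Counting intervals of Mmp3 are exact and cover counting error only, as the labels name no molecular identifiers. The fit was tested on simulated data.

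Alternatives were DESeq2 1.42.0, RLE factors, total counts, no filter, a filter of 1 CPM in 3 libraries, a fit to 6 libraries, a replicate block, each library left out in turn, an adjusted p under 0.01, PBS replicate 1 as the only PBS library, and 2 terms for the summed neuron markers. Another neural term, from the 12 neuron markers left without Dlg4, Eno2 and Tubb3, was added after seeing the data. All members are named. Of each other list up to 3 called genes per comparison, those with the largest fold change, could be named, and for each called member with at least 5 CPM the 3 most alike profiles. Mmp1a, Mmp1b, Mmp7, Mmp8, Mmp20, Mmp27 and the markers are named as cluster neighbours or for the check of cell types. The members, lists and tests were chosen with earlier results of these data known.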

Additional observations from a re-analysis of the deposited data

How the results depend on the processing

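Of 598 alternative results for single genes, 550 kept their direction and side of the threshold, 22 lost a call, 7 gained one and 19 changed sign. The sign changes lie at values near 0 for Mmp14 (-0.06 to 0.00), Timp2 (-0.01 without TNFα replicate 1) and Mmp2 (0.04 for TNFα+ACHP over TNFα with the added neural term), and at few counts for Mmp3. For Mmp3 in TNFα+ACHP over PBS they were 1.46 with the log2 neuron covariate, 3.79 with the added term, 3.76 with PBS replicate 1 alone and 0.05 without PBS replicate 2, and in TNFα+ACHP over TNFα 0.19 with the added term. For Mmp14 the single values were -0.01, -0.02, -0.03, -0.06 and 0.00. When leaving out a library, Mmp14 ranged from -0.01 to 0.04 for TNFα over PBS, -0.01 to 0.02 for TNFα+ACHP over TNFα and 0.00 to 0.04 for TNFα+ACHP over PBS, Timp2 from -0.01 to 0.04 for TNFα over PBS, and Mmp3 from -1.85 to 0.05 for TNFα+ACHP over PBS.

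Genes called for TNFα over PBS numbered 917, and 442 at an adjusted p under 0.01, 418 with PBS replicate 1 alone and 468 to 957 when leaving out a library (468, 499 and 597 without TNFα replicates 1, 2 and 3). For TNFα+ACHP over TNFα they numbered 1058, and 468 at an adjusted p under 0.01, 559, 382 and 143 with the 2-level neural term, the covariate and the added term, and 541 to 1327 when leaving out a library (603 and 541 without TNFα replicates 1 and 2, 590 and 643 without TNFα+ACHP replicates 2 and 3). For TNFα+ACHP over PBS they numbered 891, and 427 at an adjusted p under 0.01, 493 in the 6 libraries alone, 288, 192 and 162 with the same 3 terms, 237 with PBS replicate 1 alone, and 494 to 988 when leaving out a library (511 without PBS replicate 2, 494 without TNFα+ACHP replicate 3). Members called for TNFα over PBS were 7, with 6 to 8 over all alternatives. In TNFα+ACHP over TNFα 5 were called, and 3 with the covariate and with the added term, and 4 to 5 when leaving out a library. Against PBS, TNFα+ACHP had 6, and 3 with the covariate, 2 with the added term, 2 with PBS replicate 1 alone and 5 to 7 when leaving out a library. Where a group has 1 library left, it is assumed to vary like the other groups. The cause of these moves was not tested. DESeq2 gave no adjusted p for Mmp3 in TNFα over PBS.

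Same-numbered libraries did not deviate together (r from -0.10 to 0.174 over 9 pairs, where other pairs had -0.211 to 0.173), so the numbers were not taken as pairs. With the replicate number as a block, 945 genes were called for TNFα over PBS, 1175 for TNFα+ACHP over TNFα and 988 for TNFα+ACHP over PBS, and members called were 7, 5 and 6, as without the block.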
